A study of Mus musculus with 9 samples.

Results

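The genes described here are 32 transcriptional targets of p53, with Trp53, the gene of p53 itself, counted among them. They were picked by symbol from a list of well-known targets, and all 32 were found among the 49671 genes of the count table. Earlier results of these data were known when the genes were chosen, so the choice was not independent of the data. A filter on low counts left 15766 genes for testing, and 31 of the 32 passed it. The exception was Pmaip1, the gene of the BH3-only protein NOXA, whose counts lay between 2 and 9 in every library.

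The study used Panc02, a mouse line of pancreatic ductal adenocarcinoma, and made 3 RNA libraries from each of 3 groups. It asked what the loss of VPAC2, a receptor for vasoactive intestinal peptide encoded by Vipr2, does to gene expression. KO_1E7 is clone 1E7, whose genotype label is VPAC2 knock out, and CRISPR_1G2 is clone 1G2, whose genotype label is CRISPR-wild type. Parental is the unedited line, labelled wild type. The design text calls both clones knockouts, so it disagrees with the genotype label of 1G2, and the genotype labels are followed here. Each edited group is 1 single-cell clone, so the edit cannot be told apart from other differences of that clone. All cells grew in DMEM with 10% serum and without treatment. Nothing in the labels says that replicates came from separate cultures, so p-values measure the spread between these libraries, which may be technical. In each group the column name of replicate 3 carries the word NSG and those of replicates 1 and 2 carry dates. What NSG stands for is not given in the labels, and these libraries are described apart as NSG-named and dated. The labels do not give the Trp53 genotype of the line.

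p53 is a transcription factor that binds DNA as a tetramer, and cellular stress activates it mainly by keeping the protein from being degraded. Its targets stop the cell cycle, start apoptosis, repair DNA and adjust metabolism, and one of them, Mdm2, encodes the ubiquitin ligase that sends p53 itself for degradation. Because p53 is controlled mainly through its stability, the level of Trp53 RNA is a poor guide to the activity of the protein.

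A p53 response element is built from a pair of decamers, called half-sites, with a short spacer or none between them. RefSeq promoter windows of build GRCm38.p6 were found for 24 of the 32 genes, and the 250 bases before each start were searched for the half-site consensus, which reads the same on both strands. The 24 genes had 35 windows, and a gene was counted if any of its windows matched. Counts of genes and shares of windows are therefore in unlike units. An exact half-site was present for 9 of the 24 genes (Trp53, Mdm2, Cdkn1a, Ccng1, Bax, Aen, Ei24, Sesn1 and Polk), and in 7.13% of all 32851 windows. A pair of half-sites with a spacer of at most 3 bases and at most 2 mismatches was present for 4 genes, and in 1.09% of all windows. Those 4 stretches are printed with that of Mdm2, because they are the closest matches near the starts of genes whose levels are given below, and because they belong to genes with different patterns across the libraries. Capitals mark exact half-sites and the decamers of the matched pair, and each runs 5′ to 3′ on the strand of its gene. The pairs of Cdkn1a and Ccng1 had 1 mismatch and those of Bax and Sesn1 had 2. A match describes letters and is not evidence of binding. The best known response elements of Mdm2 lie in its first intron, outside this window.
Cdkn1a: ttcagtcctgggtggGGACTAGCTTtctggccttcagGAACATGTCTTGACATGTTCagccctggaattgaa
Ccng1: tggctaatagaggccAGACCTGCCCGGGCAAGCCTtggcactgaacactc
Mdm2: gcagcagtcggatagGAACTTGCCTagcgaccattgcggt
Bax: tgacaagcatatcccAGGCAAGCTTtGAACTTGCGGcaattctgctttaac
Sesn1: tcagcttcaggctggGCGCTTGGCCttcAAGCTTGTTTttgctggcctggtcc
In that order they lie at chr17:29090891-29090962 (plus strand, positions -88 to -17 from the upstream of 2 RefSeq starts), chr11:40755447-40755496 (minus strand, -210 to -161), chr10:117710920-117710959 (minus strand, -201 to -162), chr7:45467064-45467114 (minus strand, -216 to -166) and chr10:41887238-41887290 (plus strand, -201 to -149 from 1 of 2 starts).

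Gene counts per library lay between 27898705 and 51878289. Vipr2 was counted 1, 2 and 1 times in KO_1E7, 1, 13 and 12 times in CRISPR_1G2, and 6, 3 and 12 times in parental, which is too few to check the labels. Genes related to ribosomal RNA took 18.2% of the counts of parental replicate 3 and 0.621% to 1.27% of the other 8 libraries. The labelled cell type was checked against epithelial and ductal markers: the keratin genes Krt8 and Krt18 were the highest of the 10, each above 248 CPM (counts relative to library size, which TMM scaled) in every library. Others were low: Epcam lay between 0.746 and 16.6 CPM, Muc1 between 0.853 and 3.47 CPM and Cftr between 0 and 0.122 CPM, while Krt7 lay between 4.01 and 5.31 CPM in KO_1E7, 13.7 and 67.2 CPM in CRISPR_1G2 and 17.7 and 30.5 CPM in parental. Markers of islet cells were at 0 in all libraries except for 1 count of Ins2, and the summed endothelial markers were at most 1.40 CPM. The summed immune markers lay between 21.9 and 23.5 CPM in KO_1E7, between 20.6 and 32.1 CPM in CRISPR_1G2 and between 3.75 and 24.5 CPM in parental. The summed acinar markers, of which Cela1 was the most abundant, lay between 7.39 and 13.3 CPM in KO_1E7, between 1.27 and 2.21 CPM in CRISPR_1G2 and between 2.35 and 2.87 CPM in parental. The part of these differences in the results was not tested.

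Without regard to group, the genes differed widely in how far their libraries spread. Highest over lowest library was at least 5-fold for 15 of the 31 tested genes and under 2-fold for 6, with the others in between. Per kilobase of transcript, the mean of the dated libraries was highest for Mdm2 at 167 CPM per kb, followed by Bax at 72.7, the Akt inhibitor gene Phlda3 at 70.1, the cyclin gene Ccng1 at 56.4 and Trp53 at 51.7 CPM per kb. It was lowest for Pmaip1 at 0.0483 and for the death receptor gene Fas at 0.188 CPM per kb.

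The NSG-named libraries of CRISPR_1G2 and parental carried the highest levels of most of these genes, and the NSG-named library of KO_1E7 did not. In KO_1E7 the level in the NSG-named library over the mean of the dated ones had a median of 1.00 over the 31 genes (range 0.368 to 1.99), and no gene reached a ratio of 2, against 2.68% of all tested genes. In CRISPR_1G2 the median ratio was 2.59 (0.795 to 48.5) and 18 of 31 genes reached 2, against 13.1% of all tested genes. In parental it was 1.78 (0.667 to 22.0) and 14 of 31 reached 2, against 11.8% of all tested genes. All 14 were also among the 18 of CRISPR_1G2: Mdm2, Cdkn1a, Btg2, Plk2, Ccng1, Gdf15, Bbc3, Fas, Eda2r, Trp53inp1, Phlda3, Ak1, Polk and Ercc5. CRISPR_1G2 replicate 3 was the highest of the 9 libraries for 26 of 31 genes, against 24.6% of all tested genes. Both NSG-named libraries of CRISPR_1G2 and parental lay above all other 7 libraries for 21 of 31 genes, against 18.2% of all tested genes. In such bulk libraries, more RNA per cell and more cells that express a gene cannot be told apart. Each ratio rests on 1 NSG-named library, and the difference between CRISPR_1G2 and parental, larger in CRISPR_1G2 for 26 of 31 genes, was not tested.

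**Figure D1:**
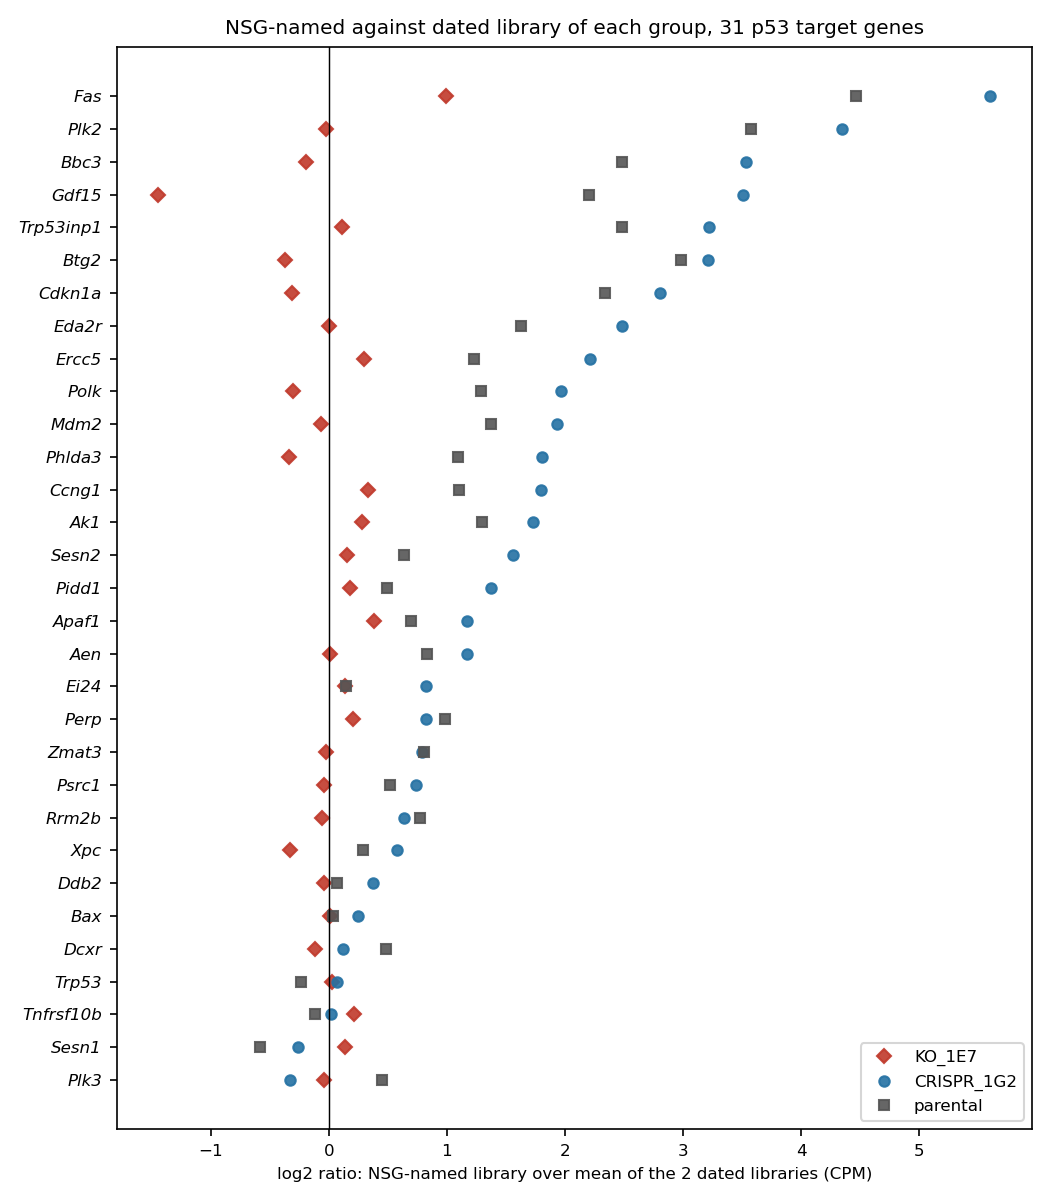
Level of each tested p53 target in the NSG-named library of a group over the mean of its 2 dated libraries (log axis), with 1 point for each group, KO_1E7, CRISPR_1G2 and parental. The KO_1E7 points stay between 0.368 and 1.99, while 18 CRISPR_1G2 points and 14 parental points lie at 2 or more.

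Trp53 itself was nearly level, and its main feedback gene was not. Trp53 (ENSMUSG00000059552, chromosome 11, 69580359 to 69591873, plus strand, GRCm38) measured 188 CPM (NSG-named) against 183 and 186 CPM (dated) in KO_1E7, 229 CPM (NSG-named) against 222 and 216 CPM (dated) in CRISPR_1G2, and 191 CPM (NSG-named) against 226 and 223 CPM (dated) in parental. Its highest library was 1.25-fold above its lowest, and every KO_1E7 library of Trp53 lay below every library of the other groups. Against CRISPR_1G2 the log2 fold change of Trp53 was -0.26 ± 0.11 (SE, edgeR, adjusted p = 0.157), and the median of the tested genes of chromosome 11 was -0.28. Mdm2 (ENSMUSG00000020184, chromosome 10, 117688888 to 117710758, minus strand) measured 761 CPM (NSG-named) against 759 and 838 CPM (dated) in KO_1E7, 3909.7 CPM (NSG-named) against 872 and 1173 CPM (dated) in CRISPR_1G2, and 1857 CPM (NSG-named) against 792 and 646 CPM (dated) in parental. The NSG-named library was thus 3.82 times the dated mean in CRISPR_1G2 and 2.58 times in parental, and it lay inside the range of the dated libraries in KO_1E7.

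Among the genes of cell cycle arrest and growth control, Cdkn1a encodes p21, the inhibitor of cyclin-dependent kinases through which p53 stops the cycle. Cdkn1a (ENSMUSG00000023067, chromosome 17, 29090979 to 29100722, plus strand) measured 34.1 CPM (NSG-named) against 40.5 and 44.2 CPM (dated) in KO_1E7, 479.8 CPM (NSG-named) against 64.6 and 72.9 CPM (dated) in CRISPR_1G2, and 189 CPM (NSG-named) against 43.2 and 31.8 CPM (dated) in parental. Btg2, an antiproliferative gene of the BTG/TOB family, measured 13.2 CPM (NSG-named) against 18.1 and 15.99 CPM (dated) in KO_1E7, 119.7 CPM (NSG-named) against 9.95 and 15.9 CPM (dated) in CRISPR_1G2, and 77.9 CPM (NSG-named) against 11.6 and 8.03 CPM (dated) in parental. In both genes the NSG-named library was above every dated library in CRISPR_1G2 and parental and below both dated libraries in KO_1E7. Plk2, a polo-like kinase induced by stress, measured 45.5 CPM (NSG-named) against 50.1 and 42.4 CPM (dated) in KO_1E7, 778 CPM (NSG-named) against 29.9 and 46.5 CPM (dated) in CRISPR_1G2, and 645 CPM (NSG-named) against 76.9 and 31.2 CPM (dated) in parental. Ccng1, the gene of cyclin G1, measured 219.6 CPM (NSG-named) against 197 and 152 CPM (dated) in KO_1E7, 918 CPM (NSG-named) against 257 and 273 CPM (dated) in CRISPR_1G2, and 332 CPM (NSG-named) against 146 and 163 CPM (dated) in parental. For Ccng1 the NSG-named library of KO_1E7 was also above its dated ones, at 1.26 times their mean, against 3.47 times in CRISPR_1G2 and 2.14 times in parental. Gdf15, a secreted stress cytokine of the TGF-beta family, had the widest spread of the arrest genes, between 2.33 CPM in KO_1E7 replicate 3 and 206 CPM in parental replicate 3. Psrc1, a spindle protein gene, lay between 60.4 and 145 CPM, and Plk3, a second polo-like kinase gene, between 22.7 and 42.1 CPM, with parental replicate 3 the highest library and CRISPR_1G2 replicate 3 the lowest.

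**Figure D2:**
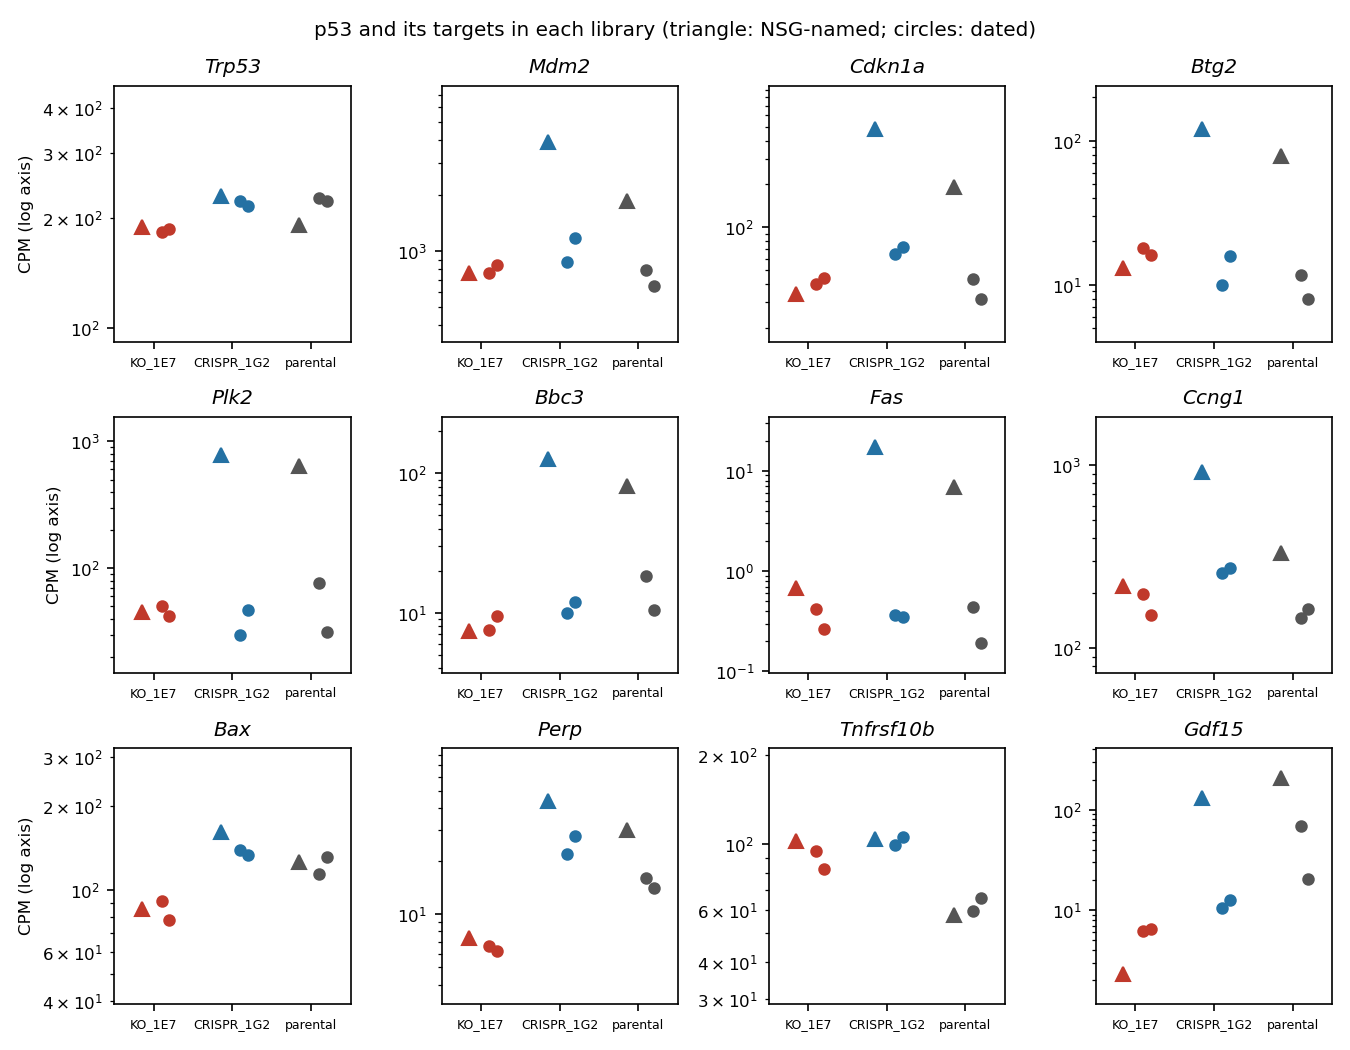
CPM (log axis) of Trp53 and 11 of its targets in each of the 9 libraries by group, with triangles for NSG-named and circles for dated libraries. The NSG-named points of CRISPR_1G2 and parental stand above the dated points for genes such as Cdkn1a, Btg2 and Plk2, and the KO_1E7 points of these genes lie together.

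Of the apoptosis genes, the BH3-only gene Bbc3 and the receptor gene Fas separated the NSG-named libraries most, and Bax did not. Bbc3, which encodes PUMA, measured 7.40 CPM (NSG-named) against 7.49 and 9.46 CPM (dated) in KO_1E7, 127 CPM (NSG-named) against 9.99 and 11.9 CPM (dated) in CRISPR_1G2, and 80.6 CPM (NSG-named) against 18.3 and 10.5 CPM (dated) in parental. Bax, the pore-forming effector of the mitochondrial pathway, measured 85.04 CPM (NSG-named) against 91.5 and 77.8 CPM (dated) in KO_1E7, 162 CPM (NSG-named) against 139 and 134 CPM (dated) in CRISPR_1G2, and 126 CPM (NSG-named) against 114 and 131 CPM (dated) in parental. The 3 KO_1E7 libraries were the lowest 3 of the 9 for Bax, and its NSG-named libraries stood at 1.00 times the dated mean in KO_1E7, 1.19 times in CRISPR_1G2 and 1.02 times in parental.

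Fas measured 0.686 CPM (NSG-named) against 0.424 and 0.265 CPM (dated) in KO_1E7, 17.2 CPM (NSG-named) against 0.363 and 0.347 CPM (dated) in CRISPR_1G2, and 6.95 CPM (NSG-named) against 0.437 and 0.193 CPM (dated) in parental. Dated and KO_1E7 libraries held between 7 and 23 counts of Fas, so its ratios are uncertain. Eda2r, a receptor of the tumor necrosis factor receptor family, measured 20.4 CPM (NSG-named) against 15.97 and 24.7 CPM (dated) in KO_1E7, 216 CPM (NSG-named) against 33.6 and 43.8 CPM (dated) in CRISPR_1G2, and 57.7 CPM (NSG-named) against 20.4 and 16.9 CPM (dated) in parental. Tnfrsf10b, the mouse receptor for TRAIL, measured 102 CPM (NSG-named) against 94.6 and 82.2 CPM (dated) in KO_1E7, 104 CPM (NSG-named) against 99.4 and 106 CPM (dated) in CRISPR_1G2, and 57.8 CPM (NSG-named) against 59.4 and 65.8 CPM (dated) in parental. Here the 3 parental libraries were the lowest 3 of the 9, and KO_1E7 and CRISPR_1G2 overlapped.

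The remaining apoptosis genes included several that were lower in KO_1E7 whatever the library name. Perp, a membrane protein gene of desmosomes and apoptosis, measured 7.37 CPM (NSG-named) against 6.61 and 6.21 CPM (dated) in KO_1E7, 43.9 CPM (NSG-named) against 21.97 and 27.6 CPM (dated) in CRISPR_1G2, and 29.9 CPM (NSG-named) against 16.1 and 14.1 CPM (dated) in parental. Pidd1, which encodes the scaffold of the complex that activates caspase-2, measured 16.7 CPM (NSG-named) against 14.8 and 14.8 CPM (dated) in KO_1E7, 81.5 CPM (NSG-named) against 29.7 and 33.3 CPM (dated) in CRISPR_1G2, and 27.9 CPM (NSG-named) against 20.4 and 19.3 CPM (dated) in parental. All 3 KO_1E7 libraries lay below all other 6 for both genes. Aen, an apoptosis-enhancing nuclease gene, measured 51.8 CPM (NSG-named) against 57.2 and 45.7 CPM (dated) in KO_1E7, 228 CPM (NSG-named) against 102 and 101 CPM (dated) in CRISPR_1G2, and 163 CPM (NSG-named) against 99.2 and 83.8 CPM (dated) in parental. Phlda3 measured 59.9 CPM (NSG-named) against 84.9 and 66.7 CPM (dated) in KO_1E7, 551 CPM (NSG-named) against 147 and 168 CPM (dated) in CRISPR_1G2, and 201 CPM (NSG-named) against 89.7 and 99.02 CPM (dated) in parental. Zmat3, an RNA-binding regulator of splicing, measured 111 CPM (NSG-named) against 112 and 115 CPM (dated) in KO_1E7, 262 CPM (NSG-named) against 159.7 and 143 CPM (dated) in CRISPR_1G2, and 177 CPM (NSG-named) against 103 and 99.99 CPM (dated) in parental. KO_1E7 was again lowest for Aen and Phlda3, and the NSG-named libraries of CRISPR_1G2 and parental were the highest 2 for all 3 genes. Trp53inp1, a nuclear stress protein gene, lay between 15.2 CPM in parental replicate 2 and 429 CPM in CRISPR_1G2 replicate 3. Apaf1, the gene of the apoptosome scaffold, lay between 34.5 and 109 CPM, and Ei24, an endoplasmic reticulum protein gene, between 52.1 and 141 CPM.

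The genes of metabolism and DNA repair held both kinds of pattern. Dcxr, a dicarbonyl reductase gene, measured 3.43 CPM (NSG-named) against 3.82 and 3.62 CPM (dated) in KO_1E7, 10.4 CPM (NSG-named) against 8.97 and 10.1 CPM (dated) in CRISPR_1G2, and 7.39 CPM (NSG-named) against 5.46 and 5.08 CPM (dated) in parental. Ddb2, which encodes a damage sensor of nucleotide excision repair, measured 8.57 CPM (NSG-named) against 8.20 and 9.42 CPM (dated) in KO_1E7, 16.8 CPM (NSG-named) against 12.6 and 13.3 CPM (dated) in CRISPR_1G2, and 11.95 CPM (NSG-named) against 11.4 and 11.3 CPM (dated) in parental. For both genes the KO_1E7 libraries were the lowest 3 of the 9, and the NSG-named library of CRISPR_1G2 stood at 1.09 times the dated mean for Dcxr and 1.29 times for Ddb2. Polk, a polymerase that copies past damaged bases, measured 34.1 CPM (NSG-named) against 31.96 and 52.3 CPM (dated) in KO_1E7, 174 CPM (NSG-named) against 40.9 and 48.4 CPM (dated) in CRISPR_1G2, and 84.5 CPM (NSG-named) against 37.8 and 31.4 CPM (dated) in parental. Ercc5, the gene of the repair endonuclease XPG, measured 37.8 CPM (NSG-named) against 34.6 and 27.04 CPM (dated) in KO_1E7, 136 CPM (NSG-named) against 28.7 and 30.01 CPM (dated) in CRISPR_1G2, and 59.02 CPM (NSG-named) against 24.9 and 25.5 CPM (dated) in parental. In both genes the NSG-named libraries of CRISPR_1G2 and parental lay above all other 7 libraries. The adenylate kinase gene Ak1 ranged between 27.5 and 135 CPM and Sesn2, a sestrin that restrains mTORC1, between 32.02 and 136 CPM. Rrm2b, a ribonucleotide reductase subunit gene, ranged between 28.4 and 53.4 CPM. Xpc, a second damage sensor, ranged between 20.7 and 31.4 CPM and Sesn1, the other sestrin gene, between 6.53 and 12.9 CPM, each with under 2-fold between highest and lowest library.

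Fitted over all 3 groups with one shared NSG-named difference, none of the genes passed the threshold, an adjusted p under 0.05 over all tested genes (edgeR's quasi-likelihood test, Benjamini-Hochberg). The same fit called 0.0% of all tested genes. The log2 difference, NSG-named over dated, was positive for 29 of 31 genes with a median of 0.76, against 0.0014 over all tested genes, 23 of 31 genes had an unadjusted p under 0.05, against 33.3% of all tested genes, and the lowest adjusted p was 0.0772. DESeq2 called 19 of 31 higher, against 8.63% of all genes. With KO_1E7 replicate 1 left out 9 were called higher, against 3.49% of all genes. With KO_1E7 replicate 3 left out, 23 of 31 were called higher, against 17.8% of all genes, and with all of KO_1E7 left out 24 of 31, against 20.2%. None of the 31 was called without KO_1E7 replicate 2, nor without any single library of CRISPR_1G2 or parental. The shares of all genes called in those fits are not given here. The NSG-named library of each group had the lowest summed ductal and epithelial markers of that group. The sums were 1287 CPM (NSG-named) against 1324 and 2108 CPM (dated) in KO_1E7, 896 CPM (NSG-named) against 1914 and 2113 CPM (dated) in CRISPR_1G2, and 1360.2 CPM (NSG-named) against 1979 and 2052 CPM (dated) in parental. Not every marker followed the sum: Sox9 measured 178 CPM (NSG-named) against 138 and 142 CPM (dated) in CRISPR_1G2. In parental Sox9 measured 219 CPM (NSG-named) against 133 and 138 CPM (dated). The summed fibroblast markers were 30.4 CPM (NSG-named) against 40.4 and 26.2 CPM (dated) in KO_1E7, 74.2 CPM (NSG-named) against 31.7 and 51.0 CPM (dated) in CRISPR_1G2, and 40.2 CPM (NSG-named) against 35.5 and 25.2 CPM (dated) in parental, so the NSG-named library was the highest in CRISPR_1G2 and in parental and lay between the dated ones in KO_1E7. The part of both lists in this result and in the interaction was not tested.

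Whether the NSG-named difference of KO_1E7 departed from that shared by CRISPR_1G2 and parental was tested as an interaction. The value is the log2 difference, NSG-named over dated, of KO_1E7 less the shared one, so a negative value means that the NSG-named library of KO_1E7 stood lower relative to its dated libraries. Of the 31 genes 13 were lower and none was higher, against 3.12% of all tested genes lower and 9.44% in either direction. The median was -0.97, against -0.0049 over all tested genes. The smallest adjusted p-values were those of Cdkn1a, at -2.89 ± 0.29 (SE, adjusted p = 0.00759), and Btg2, at -3.47 ± 0.39 (SE, adjusted p = 0.00983). Mdm2 stood at -1.73 ± 0.30 (SE, adjusted p = 0.0168) and Phlda3 at -1.80 ± 0.31 (SE, adjusted p = 0.0164). Among the called values furthest from 0 were those of Fas, at -4.03 ± 0.73 (SE, adjusted p = 0.0174), Plk2, at -4.00 ± 0.75 (SE, adjusted p = 0.0290), and Bbc3, at -3.23 ± 0.57 (SE, adjusted p = 0.0211). The other called genes were Zmat3, Polk, Eda2r, Aen, Ercc5 and Ccng1, between -2.08 and -0.83. Of the sequences printed above, those of Cdkn1a, Ccng1 and Mdm2 belong to called genes and those of Bax and Sesn1 do not. Aen and Polk, also called, had an exact half-site, and so did Trp53 and Ei24, which were not called. The called genes Btg2, Phlda3, Fas, Bbc3, Plk2, Eda2r and Ercc5 had none in their windows. The part of these sites in the interaction was not tested. Gdf15, at -4.33 ± 1.07 (SE, adjusted p = 0.0601), and Trp53inp1, at -2.75 ± 0.69 (SE, adjusted p = 0.0603), had large values and wide errors. Trp53 stood at 0.11 ± 0.17 (SE, adjusted p = 0.725). This test has 1 NSG-named library in each group and takes its spread from the others. The calls fell to 2, Cdkn1a and Btg2, without CRISPR_1G2 replicate 3 (0.684% of all genes called in either direction), to 3 without CRISPR_1G2 replicate 2 (1.65%), to 5 without CRISPR_1G2 replicate 1 (2.21%) and to 8 without parental replicate 2 (5.36%). Cdkn1a and Btg2 were called in all 8 fits that left out 1 library, and KO_1E7 replicate 3 cannot be left out. Without the genes related to ribosomal RNA, all 13 calls remained.

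**Figure D3:**
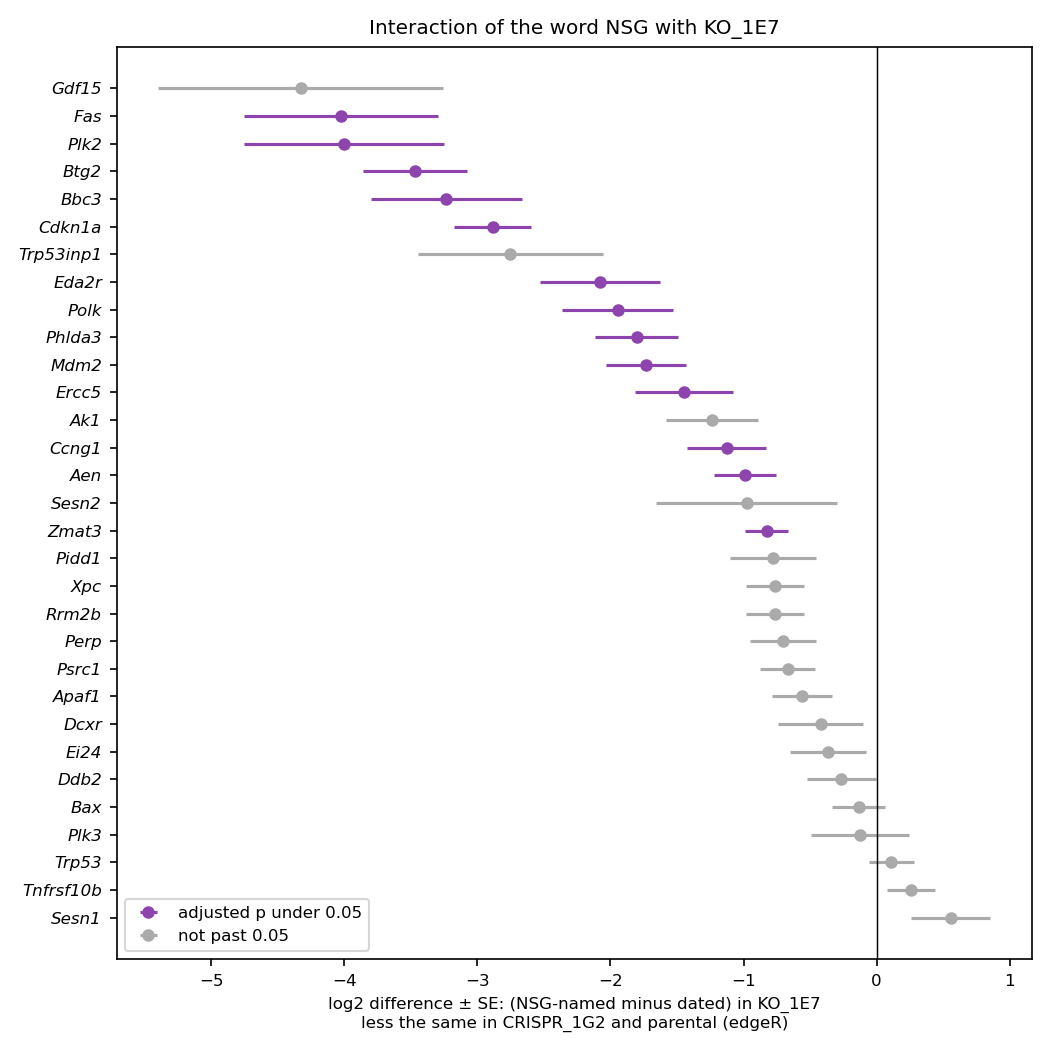
Interaction value of each tested p53 target, the log2 NSG-named difference of KO_1E7 less that shared by CRISPR_1G2 and parental, with its standard error. The 13 called genes all lie below 0, from -4.03 for Fas to -0.83 for Zmat3.

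Compared with CRISPR_1G2 over all 3 libraries, KO_1E7 had 7 of 31 genes lower and none higher, against 7.03% of all tested genes lower and 12.7% in either direction. The 7 were Dcxr, Perp, Bax, Pidd1, Ddb2, Aen and Phlda3, and of these Aen and Phlda3 were also called in the interaction. Perp averaged 6.73 ± 0.588 CPM in KO_1E7 and 31.2 ± 11.4 CPM in CRISPR_1G2 (SD, n = 3 each), and its log2 fold change was -2.21 ± 0.35 (SE, adjusted p = 0.00684). Dcxr averaged 3.62 ± 0.191 CPM in KO_1E7 and 9.84 ± 0.767 CPM in CRISPR_1G2, at -1.44 ± 0.21 (SE, adjusted p = 0.00507). Bax averaged 84.8 ± 6.85 CPM in KO_1E7 and 145 ± 14.96 CPM in CRISPR_1G2, at -0.77 ± 0.13 (SE, adjusted p = 0.00760). Pidd1 stood at -1.64 ± 0.37 (SE, adjusted p = 0.0235), Aen at -1.48 ± 0.36 (SE, adjusted p = 0.0320), Phlda3 at -2.03 ± 0.53 (SE, adjusted p = 0.0400) and Ddb2 at -0.71 ± 0.17 (SE, adjusted p = 0.0274). The median log2 fold change was -1.16, against -0.032 over all tested genes, and 18 of 31 genes had an unadjusted p under 0.05, against 29.0% of all tested genes. In 17 of 31 genes every KO_1E7 library lay below every CRISPR_1G2 library, against 19.4% of all tested genes. In the dated libraries alone 11 genes were lower, against 9.62% of all genes, and these were all 7 with Ccng1, Cdkn1a, Eda2r and Zmat3. The median then was -0.38. Perp and Dcxr were called in all 9 fits that left out 1 library, and without KO_1E7 replicate 3 they were the only 2 (2.73% of all genes called in either direction). There were 3 calls without KO_1E7 replicate 1 (3.37%), 4 without KO_1E7 replicate 2 (8.66%) and 4 without parental replicate 1 (7.81%). Bax, Aen and Pidd1 lie on chromosome 7, whose tested genes had a median of -0.53, and less that median they stood at -0.24, -0.95 and -1.11. Less the median of chromosome 2, Ddb2 stood at -0.44.

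**Figure D4:**
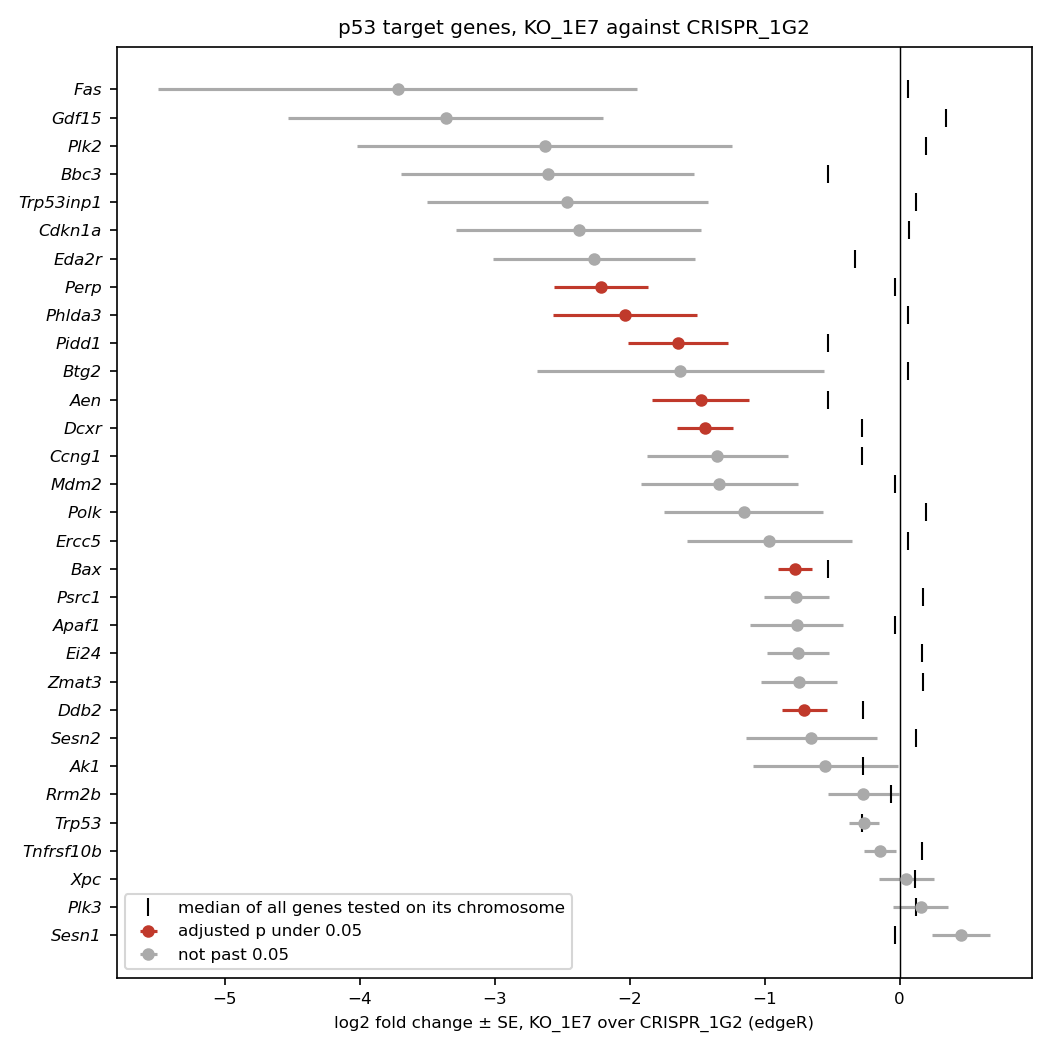
Log2 fold change of each tested p53 target, KO_1E7 over CRISPR_1G2, with its standard error. The 7 called genes lie between -2.21 for Perp and -0.71 for Ddb2.

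Compared with parental, KO_1E7 had 3 of 31 genes called, against 5.42% of all tested genes. Tnfrsf10b was higher, at 93.1 ± 10.3 CPM in KO_1E7 and 60.98 ± 4.22 CPM in parental (SD, n = 3 each), and its log2 fold change was 0.61 ± 0.12 (SE, adjusted p = 0.0292), against 2.54% of all tested genes higher. Perp was lower, at 6.73 ± 0.588 CPM in KO_1E7 and 20.04 ± 8.61 CPM in parental, a log2 fold change of -1.57 ± 0.34 (SE, adjusted p = 0.0369), and Bax was lower at -0.55 ± 0.13 (SE, adjusted p = 0.0423), against 2.87% of all tested genes lower. Less the median of its chromosome, -0.45 for chromosome 7, Bax stood at -0.10, and Tnfrsf10b at 0.32. Gdf15 had a value of -4.29 ± 1.21 (SE, adjusted p = 0.0745) and Cdkn1a one of -1.15 ± 0.87 (SE, adjusted p = 0.464). In 11 of 31 genes every KO_1E7 library lay below every parental library, against 17.3% of all tested genes. The median log2 fold change was -0.47, against -0.028 over all tested genes, and it was 0.027 in the dated libraries alone and 0.034 without parental replicate 3. Leaving out any 1 library gave between 0 and 5 calls, with no call left without parental replicate 1, parental replicate 3, KO_1E7 replicate 1, KO_1E7 replicate 3 or CRISPR_1G2 replicate 2. Of all tested genes 3735 had an unadjusted p under 0.05 in the main fit, 2735 without KO_1E7 replicate 1 and 2582 without KO_1E7 replicate 3. Among the 31 genes there were 7, 6 and 6. The shares of all genes called in these fits are not given here, so the loss of calls cannot be read as particular to these genes. This comparison and the previous one share the KO_1E7 libraries.

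Between CRISPR_1G2 and parental none of the 31 genes was called by edgeR, against 0.254% of all tested genes. With an unadjusted p under 0.05 there were 4 of 31 genes, against 7.73% of all tested genes, and DESeq2 called 2, Dcxr and Tnfrsf10b, both higher in CRISPR_1G2, against 0.438% of all tested genes. Tnfrsf10b averaged 103 ± 3.23 CPM in CRISPR_1G2 and 60.98 ± 4.22 CPM in parental, a log2 fold change of 0.76 ± 0.12 (SE, adjusted p = 0.0594) by edgeR. In 6 of 31 genes every CRISPR_1G2 library lay above every parental library, against 6.64% of all tested genes. The median log2 fold change was 0.59, against 0.020 over all tested genes. It was -0.034 without CRISPR_1G2 replicate 3, a fit that kept the NSG-named library of parental. In the dated libraries alone it was 0.30, against -0.015 over all tested genes, with 23 of 31 genes above 0.

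Other genes of the pathway were followed in 3 lists. The first holds 32 cell cycle genes that p21 lowers through the DREAM complex, all tested. In the interaction 18 of the 32 were higher and none lower, against 6.32% of all tested genes higher, with a median of 0.89 and all 32 above 0. Ccnb2, a mitotic cyclin gene, stood at 1.73 ± 0.22 (SE, adjusted p = 0.00983), Mybl2 at 1.43 ± 0.20 (SE, adjusted p = 0.0114), the kinesin gene Kif23 at 1.25 ± 0.18 (SE, adjusted p = 0.0120) and the replication helicase gene Mcm7 at 1.25 ± 0.20 (SE, adjusted p = 0.0135). The summed level of the 32 genes was 7053 CPM (NSG-named) against 6929 and 6363 CPM (dated) in KO_1E7, 4162 CPM (NSG-named) against 6974 and 6912 CPM (dated) in CRISPR_1G2, and 3679 CPM (NSG-named) against 5904 and 7571 CPM (dated) in parental. The NSG-named library was thus below both dated ones in CRISPR_1G2 and parental and above both in KO_1E7. None of the 32 was called in the other 4 comparisons. In either direction, KO_1E7 against parental called 5.42% of all tested genes and KO_1E7 against CRISPR_1G2 12.7%. CRISPR_1G2 against parental called 0.254% and NSG-named against dated 0.0%. In that last comparison all 32 lay below 0, with a median of -0.56.

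The second list holds 36 further p53 targets, of which 31 were tested. In the interaction 3 were lower, Btg1 at -1.48 ± 0.20 (SE, adjusted p = 0.0108), Ier5 at -1.30 ± 0.27 (SE, adjusted p = 0.0250) and Pltp at -2.74 ± 0.56 (SE, adjusted p = 0.0250), and 1 was higher, Fdxr at 1.21 ± 0.21 (SE, adjusted p = 0.0159). Of all tested genes the interaction called 3.12% lower, 6.32% higher and 9.44% in either direction. The median over the 31 tested genes of the list was -0.44, and 18 of the 31 lay below 0. The inflammatory caspase gene Casp1 and the metalloreductase gene Steap3 were higher in KO_1E7 than in CRISPR_1G2 and than in parental, with log2 fold changes over parental of 1.59 ± 0.25 (SE, adjusted p = 0.0161) and 2.37 ± 0.49 (SE, adjusted p = 0.0329). Pltp was lower in KO_1E7 than in CRISPR_1G2, at -2.50 ± 0.57 (SE, adjusted p = 0.0256). Against parental the calls were thus 2 of 31, against 5.42% of all tested genes called in either direction. Against CRISPR_1G2 they were 2 higher and 1 lower of 31, against 12.7% in either direction. Summed over the list, the level was 1926 CPM (NSG-named) against 2099 and 2292 CPM (dated) in KO_1E7, 3251 CPM (NSG-named) against 1819 and 1917 CPM (dated) in CRISPR_1G2, and 2859 CPM (NSG-named) against 1999.7 and 1784 CPM (dated) in parental. The sum does not speak for each gene: in the fit with one shared NSG-named difference, 12 of the 31 tested genes lay below 0.

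The third list holds 26 regulators and relatives of p53, of which 24 were tested. Between KO_1E7 and parental 4 were called, against 5.42% of all tested genes in either direction. Trp63, the gene of the p53 relative p63, was higher at 4.74 ± 0.64 (SE, adjusted p = 0.0119) and the checkpoint kinase gene Chek1 was higher at 0.74 ± 0.16 (SE, adjusted p = 0.0375). The KO_1E7 libraries of Trp63 were uneven, at 40.5 CPM (NSG-named) against 35.0 and 6.67 CPM (dated). In parental it measured 0.973 CPM (NSG-named) against 1.04 and 1.05 CPM (dated). The kinase gene Dyrk2 was lower at -0.96 ± 0.12 (SE, adjusted p = 0.00948) and the deubiquitinase gene Usp7 was lower at -0.68 ± 0.13 (SE, adjusted p = 0.0279). Between KO_1E7 and CRISPR_1G2 3 were higher and 6 lower, against 12.7% of all tested genes called in either direction. In the interaction 2 were higher and 1 lower, against 9.44% in either direction. Mdm4, the partner of Mdm2 that also inhibits p53, was called in no comparison. It measured 128 CPM (NSG-named) against 115 and 154 CPM (dated) in KO_1E7, 258 CPM (NSG-named) against 141 and 142 CPM (dated) in CRISPR_1G2, and 195 CPM (NSG-named) against 146 and 134 CPM (dated) in parental.

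**Figure D5:**
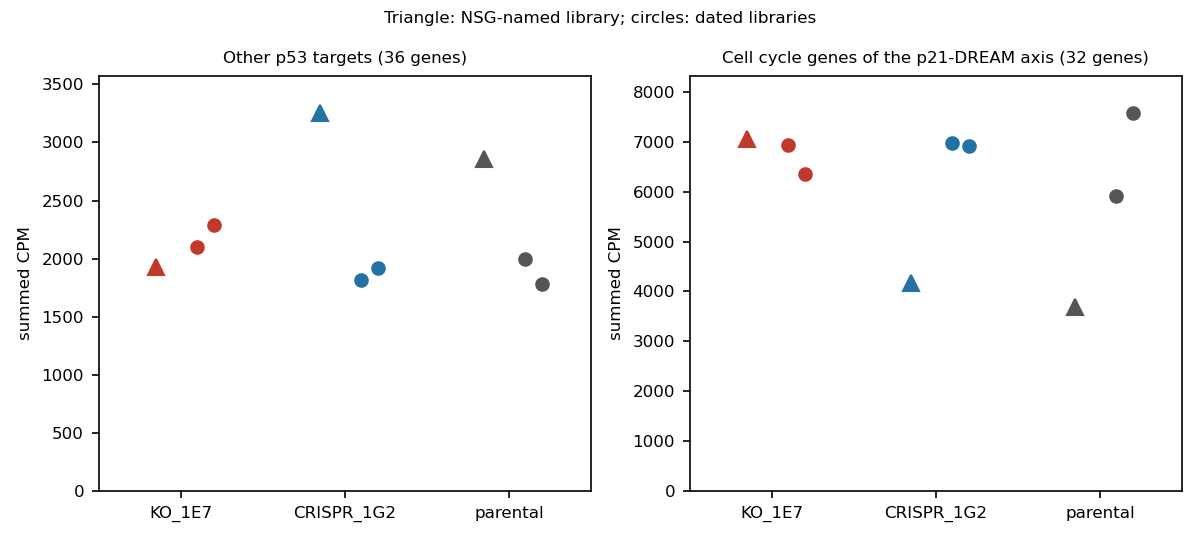
Summed CPM of the further p53 targets and of the cell cycle genes in each library by group, with triangles for NSG-named and circles for dated libraries. The cell cycle genes sum to 7053 CPM in the NSG-named library of KO_1E7, 4162 CPM in that of CRISPR_1G2 and 3679 CPM in that of parental.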

How the data were processed

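Gene counts of 9 libraries were deposited by the authors as raw whole-number counts per gene, without normalization. Per the labels' protocols, RNA from frozen cell pellets was enriched with oligo-dT beads and made into NEBNext Ultra II libraries. The submitters' processing notes name bcl2fastq 2.17, STAR 2.5.2b, featureCounts of Subread 1.5.2, DESeq2 and the build GRCm38; strand setting and annotation release are not given in the sources used here. If counting ignored strand, reads of overlapping antisense genes cannot be told apart. The 92 spike-in controls were left out; sample and series tables agreed in every cell.

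Counts were filtered (filterByExpr), scaled by TMM and tested with edgeR 4.0.16 in R 4.3.3 (robust quasi-likelihood fit, all 9 libraries, group as the term), with Benjamini-Hochberg adjustment over 15766 genes and a threshold of 0.05. The SE is the log2 fold change over the root of F. The NSG word and its interaction with KO_1E7 were added as terms. An exact permutation test of 3 libraries against 3 could not go below 0.1 (two-sided). No 2 libraries of a group agreed within sampling noise. All 32 genes are named; values per library are given for genes called in any comparison and for Mdm2, Cdkn1a and Trp53, and at most 4 called genes per other list and comparison, those with the smallest adjusted p; Mdm4 and the fits of Gdf15 and Trp53inp1 were named outside this rule, after their values were seen. The genes and lists were chosen with earlier results of these data known. Alternatives were DESeq2 1.42.0, its size factors, no count filter, blocks and omitted libraries. The test was tested on simulated data. Same-numbered libraries of CRISPR_1G2 and parental deviated together (correlations 0.243, 0.469 and 0.647), and a block for the replicate number there left the count of calls at 0; the numbers did not pair KO_1E7 with the other groups. CRISPR_1G2 1 also deviated with parental 2 (0.540) and CRISPR_1G2 2 with parental 1 (0.136), so the numbers do not stand out from the other pairs of dated libraries.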

Additional observations from a re-analysis of the deposited data

Results flagged for a closer look

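In 13 genes the NSG-named difference of KO_1E7 departed from the one shared by CRISPR_1G2 and parental by a test of the difference itself (edgeR, adjusted p under 0.05, 1 NSG-named library a group). The log2 values were -2.89 for Cdkn1a, -3.47 for Btg2, -1.80 for Phlda3, -1.73 for Mdm2, -4.03 for Fas, -3.23 for Bbc3, -0.83 for Zmat3, -4.00 for Plk2, -1.95 for Polk, -2.08 for Eda2r, -0.99 for Aen, -1.45 for Ercc5 and -1.13 for Ccng1. All 13 were negative, against 3.12% of all tested genes called lower. Their level in the NSG-named library over the dated mean ran from 0.773 to 1.99 in KO_1E7, from 1.73 to 48.5 in CRISPR_1G2 and from 1.75 to 22.05 in parental. What the word NSG stands for is not given in the labels, and its part in the result was not tested.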

How the results depend on the processing

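Counts are of the 31 tested genes called, with the percent of all tested genes called in either direction in parentheses. For KO_1E7 against parental, 3 (5.42%) by the test as reported, DESeq2 gave 6 (14.96%), no filter 1 (1.76%), a term for the NSG word 6 (13.1%), dated libraries only 5 (11.03%), a block for the date or word in the column name 5 (11.8%), only the groups compared 5 (5.79%), and parental 3 and CRISPR_1G2 3 left out together, a setting chosen after seeing the data, 8 (21.03%). For KO_1E7 against CRISPR_1G2, 7 (12.7%) as reported, DESeq2 gave 12 (21.4%), the replicate block 12 (16.6%), the NSG term 13 (21.1%), dated libraries only 11 (19.8%), the date or word block 13 (14.3%), both libraries left out 13 (29.1%), no filter 5 (4.48%) and only the groups compared 5 (9.99%). For CRISPR_1G2 against parental, 0 (0.254%) as reported, DESeq2 gave 2 (1.49%) and the NSG term 1 (0.317%). For NSG-named against dated, 0 as reported, DESeq2 gave 19 (19.3%), no filter 6 (5.11%) and KO_1E7 left out 24 (43.1%). Leaving out 1 library gave 0 to 5 calls for KO_1E7 against parental, 2 to 7 for KO_1E7 against CRISPR_1G2, 0 for CRISPR_1G2 against parental, 0 to 23 for NSG-named against dated and 2 to 17 for the interaction. These ranges carry no share of all tested genes, which moved between the fits as well. For NSG-named against dated, 3.49% of all tested genes were called higher without KO_1E7 replicate 1 and 17.8% without KO_1E7 replicate 3. The ranges therefore do not describe these genes alone. The replicate block gave 4 calls (8.23%) for KO_1E7 against parental; same-numbered libraries of KO_1E7 and the other groups did not all deviate together, so there the numbers are shared only in name.

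Signs turned as follows. For KO_1E7 against parental without parental 3, in dated libraries only and with both libraries left out, the median log2 fold change was 0.034, 0.027 and 0.026, Mdm2 stood at 0.14, 0.16 and 0.13, and Cdkn1a at 0.089, 0.19 and 0.082. For CRISPR_1G2 against parental without CRISPR_1G2 3, the median was -0.034, Mdm2 -0.10 and Cdkn1a -0.36. Trp53 for CRISPR_1G2 against parental stood at -0.017 without parental 3, -0.044 in dated libraries, -0.043 with both left out and -0.024 less its chromosome's median; it stood at 0.017 less that median for KO_1E7 against CRISPR_1G2. Without parental 3, Trp53 stood at 0.054 for NSG-named against dated and -0.052 for the interaction. Leaving out 1 library, the KO_1E7 against parental values ran from -0.62 to 0.034 (median), -0.74 to 0.14 (Mdm2) and -1.54 to 0.089 (Cdkn1a). The CRISPR_1G2 against parental values ran from -0.034 to 0.91, -0.10 to 1.47 and -0.36 to 2.46, with Trp53 from -0.017 to 0.11, and Trp53 ran from -0.10 to 0.054 in NSG-named against dated and from -0.052 to 0.27 in the interaction. The cause was not tested. Over all values and alternatives, counts of calls aside, 549 stayed the same, 92 lost the call, 10 gained one, 20 moved and 19 changed sign. A gene stayed the same if it kept direction and side of the threshold. Medians were judged by a limit on their fold ratio, and values less a chromosome median by the SE.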
